A study of Mus musculus with 18 samples.

Results

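The genes described here carry names of the form 1700006A11Rik: clone names from RIKEN's adult mouse testis cDNA library that had not been replaced by a functional name. Membership was set by that symbol pattern alone. No measured value decides it, though earlier results of these data were known when the pattern was chosen. The array held 200 such genes among 18193 genes with a probe set of their own. Each gene was read through 1 probe set, a group of short oligonucleotides for 1 transcript, namely the one annotated to that gene alone with the highest mean log2 signal over all 18 arrays. By RefSeq's gene types, 75 of the 200 encode protein, 105 are long noncoding RNAs (lncRNAs), 11 are pseudogenes or other RNAs, and 9 were not in the reference table and keep the array's name.

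Whole testes of repro9/repro9 mice, homozygous for an allele of Mybl1, were compared with wild-type testes at 2 ages, 14 and 17 days postpartum (dpp). There were 5 mutant and 3 wild-type arrays at 14 dpp, and 5 of each genotype at 17 dpp. The submitters chose these ages because early to mid pachytene spermatocytes are abundant at the first and late pachytene to diplotene spermatocytes at the second. The mutation is present in every cell of the mouse, and each array reads RNA of the whole organ, so fewer cells of a type and less RNA per cell cannot be told apart in any value below.

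Mybl1 encodes A-MYB, a transcription factor that germ cells switch on as they enter the pachytene stage of meiotic prophase. It binds the promoters of many genes that are first used in pachytene, including precursors of pachytene piRNAs, and spermatocytes that lack it arrest at that stage. RIKEN's adult testis library is rich in transcripts of spermatocytes and spermatids, many of which are found in no other tissue.

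Signal is the MAS5 value on a linear scale, and group values are geometric means. Values can be compared between arrays for 1 probe set but not between probe sets. Each array's 40th percentile, between 49.2 and 93.4 in signal, served as its background level, and a probe set had to exceed it on 3 arrays or more to be tested. Differences are on the log2 scale with the standard error (SE) from limma, and a difference was called at a Benjamini-Hochberg adjusted p under 0.05 over all 34764 tested probe sets. The filter left 126 of the 200 genes. The other 74 had geometric mean signals of 1.54 to 63.4 over all arrays (median 13.5), and 32 of them were not above the percentile on any array.

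The arrays fell into 3 sets by how much higher the 3′ probe set of β-actin read than its 5′ probe set, a measure of how far labelling reached along the transcript. This ratio was 2.31 to 2.92 on 7 arrays of all 4 groups (set 1), 1.45 to 1.49 on 4 arrays of 14 dpp (set 2), and 103 to 125 on 7 arrays of 17 dpp (set 3, holding 3 mutant and 4 wild-type arrays). Comparisons of genotype could therefore be repeated within sets, whereas ages can be compared inside a set only in set 1, where wild type has a single array of 17 dpp. The signal of Mybl1 itself was between 68.1 and 248.7 on mutant arrays of 14 dpp, below the wild-type range of 512 to 775 (difference −2.33 ± 0.52, adjusted p = 0.112). The 17 dpp ranges were 83.4 to 293 for mutants and 1076 to 3959 for wild type (−3.46 ± 0.45, adjusted p = 5.25e-05). Since the labels do not describe the lesion, this level alone does not check them.

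At 17 dpp, 44 of the 126 tested genes (34.9%) fell in mutants and 1 rose. Over all tested probe sets 3.86% were called lower and 1.48% higher, and over all tested genes, with 1 probe set each, 5.84% and 2.04%. The median difference of the 126 was −0.80, against 0.25 over all tested probe sets. Of the 44, 35 had fitted folds above 4, which are not bounds where mutants lay near background, and in 37 no mutant array reached the lowest wild-type array. Of all 15266 tested genes, 892 were called lower at 17 dpp, 708 of them without overlap, so a lack of overlap is common among such calls. At 14 dpp 6 genes fell (4.76%) and none rose, while 20 were lower and 1 higher at an unadjusted p under 0.05, against 305 and 61 of all 15266 tested genes. The share of all probe sets called at that age was 0.196% lower and 0% higher, and that of all tested genes 0.321% and 0%. The medians were −0.24 for the 126 genes and 0.06 for all probe sets. All 6 genes called at 14 dpp were also called at 17 dpp, and 40 of the 44 called at 17 dpp had a negative difference at 14 dpp.

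The filter bears on these counts: 13 of the 126 genes passed it only through wild-type arrays, and 11 of those are among the 44 called lower at 17 dpp, so their share is not that of all 200. Those 11 include 1700006A11Rik, 1700012B09Rik, 1700006J14Rik, 1700074P13Rik, 1700003H04Rik, 1700029F12Rik, 1700017N19Rik, 1700018F24Rik, 1700017G19Rik and 1700021F07Rik. Each of these was tested only because its wild-type signal is high. Genes that passed only through mutant arrays numbered 2. Among the 44, 18 had a mutant mean below 49.2, the lowest of the arrays' percentiles, and 12 had no mutant array above its percentile. Folds of these 12 are bounds where given, taking the mutant arrays at their percentiles. In 12 others every mutant array stayed above its percentile. The sign was negative in all 44 within set 1, which has 1 wild-type array of 17 dpp, and within set 3, where 38 were called. The 44 were chosen on these same arrays, so for the 37 without overlap that sign was fixed in advance.

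**Figure D1:**
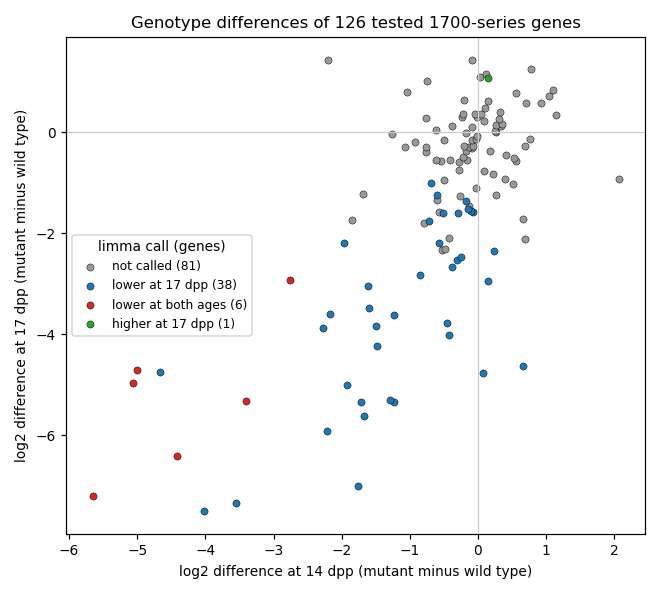
Each of the 126 tested genes is placed by its log2 difference, mutant minus wild type, at 14 dpp (horizontal axis) and at 17 dpp (vertical axis), coloured by call. The 6 genes called at both ages lie at the left, 38 called only at 17 dpp spread downward over a range of 14 dpp differences, 1 was called higher at 17 dpp, and 81 were not called.

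Genes were sorted by when their signal appeared in wild type. Onset was early when the signal lay above the percentile on all 3 wild-type arrays of 14 dpp (52 genes), late when it did so only on all 5 wild-type arrays of 17 dpp (20 genes), and neither otherwise (54 genes). Of the early genes, 6 fell in mutants at both ages, 19 were called lower only at 17 dpp, 1 was called higher at 17 dpp, and 26 were not called. Of the late genes, 16 were called lower at 17 dpp and 4 were not called. In the last class 3 were called lower at 17 dpp and 51 were not called. Onset and the 17 dpp calls use the same wild-type arrays, so the classes are a description of where the calls lie.

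**Figure D2:**
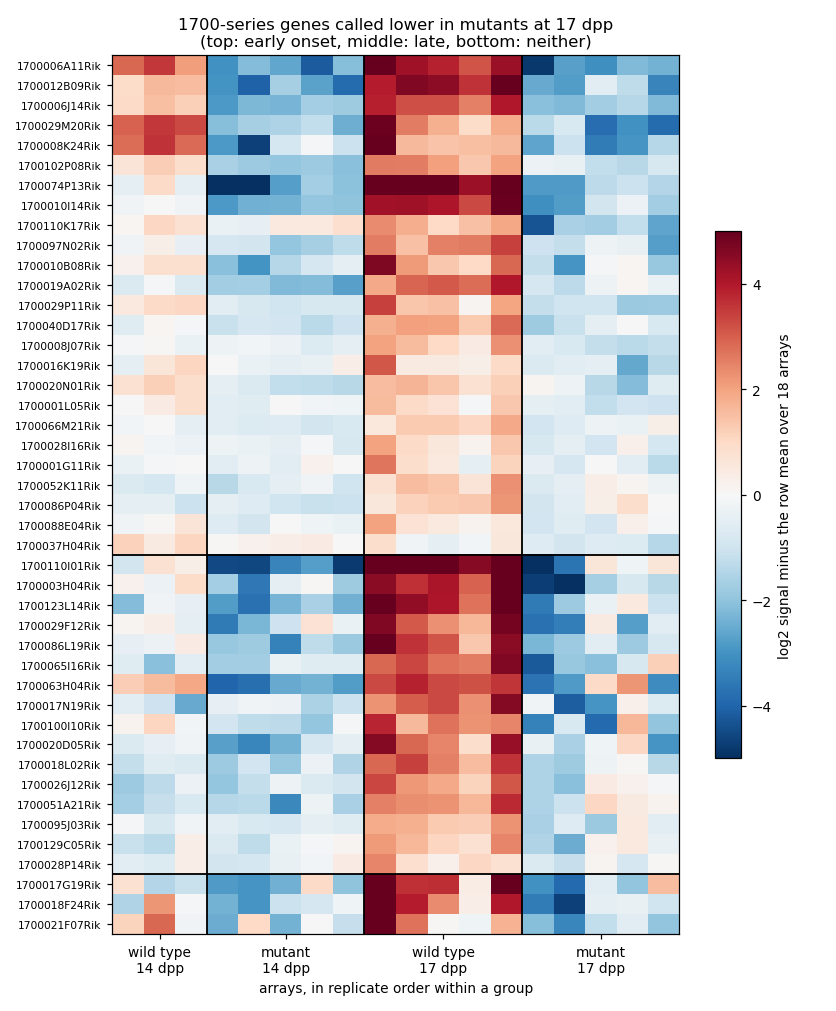
The 44 genes called lower at 17 dpp are rows, in blocks of 25 early, 16 late and 3 other genes, and the 18 arrays are columns grouped as wild type and mutant at 14 dpp and then at 17 dpp. Colour is the log2 signal minus the row's mean; the wild-type arrays of 17 dpp lie above the row mean in nearly every cell, and those of 14 dpp do so mainly in the early genes at the top.

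Promoter sequence was searched for AACTGNC, a form of the MYB recognition motif, on both strands (its reverse complement is GNCAGTT) in RefSeq windows from 250 bases before to 50 bases after the start (GRCm38.p6). A window was found for 94 of the 126 genes. The motif was in 22 of them (23.4%), in 11 of 36 genes called lower at 17 dpp (30.6%), in 3 of 5 called lower at 14 dpp, and in 11 of 58 that were not called lower (19.0%). It was in 12.9% of all 27025 windows, in 11.8% of those of all tested genes, and in 17.6% of those of all tested genes called lower at 17 dpp. These shares are descriptions, and a match is not a binding site.

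Windows of 4 genes are shown because they differ in motif content while all 4 were called lower at 17 dpp. The first 3 sequences are the 120 bases just before the start, and the last is the 120 bases that begin 250 bases before it, each 5′ to 3′ on the gene's strand, with capitals marking the motif. The one of 1700029F12Rik (chr13:97034363-97034482, minus strand) has 2 matches, at 40 and 12 bases before the start. That of 1700003H04Rik (chr3:124581092-124581211, minus strand) has 1, at 71 bases, that of 1700102P08Rik (chr9:108392714-108392833, plus strand) has none, and that of 1700012B09Rik (chr9:14771161-14771280, minus strand) has 1, at 217 bases.
1700029F12Rik: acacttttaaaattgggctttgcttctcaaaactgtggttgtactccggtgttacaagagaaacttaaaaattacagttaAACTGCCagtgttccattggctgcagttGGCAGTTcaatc
1700003H04Rik: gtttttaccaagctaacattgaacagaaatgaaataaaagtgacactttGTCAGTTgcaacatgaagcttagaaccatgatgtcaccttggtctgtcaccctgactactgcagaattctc
1700102P08Rik: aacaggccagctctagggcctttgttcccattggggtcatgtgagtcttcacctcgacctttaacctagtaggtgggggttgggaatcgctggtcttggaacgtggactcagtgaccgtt
1700012B09Rik: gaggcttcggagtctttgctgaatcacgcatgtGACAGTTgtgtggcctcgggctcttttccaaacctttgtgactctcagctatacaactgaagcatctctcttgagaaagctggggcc

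Beside that of 1700012B09Rik, the matches among genes lower at 14 dpp were in 1700006J14Rik and 1700008K24Rik, within the 50 bases after the start. Of those shown, 1700029F12Rik, with 2 matches, was a late gene, and 1700102P08Rik, with none in its window, fell at both ages.

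The first genes to describe are those that fell at both ages, 3 coding and 3 lncRNA genes: 1700006A11Rik, 1700012B09Rik, 1700102P08Rik, 1700006J14Rik, 1700029M20Rik and 1700008K24Rik. Their wild-type signal was present at 14 dpp already, and in 5 of them the mutant signal at 14 dpp was near or below the background percentile. In the sixth, 1700102P08Rik, the transcript stayed measurable in mutants.

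The protein-coding gene 1700006A11Rik on chromosome 3 had signals of 799, 1294 and 468 on the wild-type arrays of 14 dpp and of 13.4, 24.6, 18.1, 6.16 and 25 on the mutant arrays. Its wild-type signals of 17 dpp were 4217, 2069.6, 1590.1, 976 and 2206, and its mutant signals were 3.86, 16.6, 13.3, 23.8 and 21.7. All 10 mutant arrays lay below their percentiles and all 8 wild-type arrays lay far above, so the genotypes did not overlap at either age. At 14 dpp the difference was −5.65 ± 0.62 (adjusted p = 0.000201), and at 17 dpp it was −7.20 ± 0.54 (adjusted p = 1.19e-07). Taking mutants at the percentile, it was at least 9.80-fold lower at 14 dpp and at least 29.4-fold lower at 17 dpp.

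A second coding gene, 1700012B09Rik on chromosome 9, read 158, 261 and 247 in wild type at 14 dpp, and 10.4, 5.12, 26.2, 13.1 and 5.90 in mutants. By 17 dpp the wild-type arrays read 1267, 2078, 1847, 1024 and 2669.8, and the mutant arrays 14.6, 12.3, 56.1, 34.8 and 8.53. This gene thus rose in wild type between the ages while no mutant array passed its percentile. The 14 dpp difference was −4.42 ± 0.62 (adjusted p = 0.00226), and with the replicate number as a block it was −4.27 with an adjusted p of 0.0827. Within set 2, which has 1 wild-type array, it was −4.29 (adjusted p = 0.234). The 17 dpp difference was −6.41 ± 0.53 (adjusted p = 3.68e-07), at least 24.98-fold.

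The lncRNA gene 1700006J14Rik on chromosome 10 gave 376, 554 and 443 in wild type and 26.5, 40.6, 38.9, 59.0 and 56.5 in mutants at 14 dpp. Signals at 17 dpp were 2843, 1826, 1819, 1121 and 3127 in wild type and 44.8, 41.6, 58.0, 71.1 and 42.3 in mutants. The groups are tight and far apart, with every mutant array below its percentile. It was at least 5.64-fold lower at 14 dpp (−3.41 ± 0.37, adjusted p = 0.000201) and at least 30.0-fold lower at 17 dpp (−5.32 ± 0.32, adjusted p = 1.16e-08).

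The other 2 lncRNA genes of this class had age differences of −0.86 and −0.68 in wild type, which were not called (adjusted p = 0.438 and 0.657). The lncRNA 1700029M20Rik on chromosome 4 read 1509, 2243 and 1895 in wild type at 14 dpp against 44.7, 61.6, 66.5, 82.1 and 36.0 in mutants. At 17 dpp it read 5750.2, 1134, 667, 366 and 696 in wild type against 75.8, 114, 14.0, 23.5 and 13.3 in mutants. The genotypes are separate at both ages, and the wild-type array of set 1 is the highest at 17 dpp. Its difference was −5.06 ± 0.77 at 14 dpp (adjusted p = 0.00404; 0.0576 without wild-type replicate 2 of that age) and −4.96 ± 0.67 at 17 dpp (adjusted p = 7.37e-05). Another tested probe set of 1700029M20Rik differed by −4.21 at 14 dpp (adjusted p = 0.391) and by −1.92 at 17 dpp (adjusted p = 0.297).

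For 1700008K24Rik on chromosome 17 the signals at 14 dpp were 1080.2, 1923 and 1129 in wild type and 21.8, 6.16, 85.5, 146 and 74.7 in mutants. At 17 dpp wild type read 8406, 485, 428, 452 and 489, and mutants 25.5, 74.7, 13.8, 20.5 and 58.0. The single high array is the wild-type array of set 1, and the other 4 lie close together in set 3. Its 14 dpp difference of −4.996 ± 1.002 had an adjusted p of 0.0484, close to the threshold, and 15 of the 18 fits that leave out 1 array lost the call (the adjusted p reached 0.443 when wild-type replicate 2 of 14 dpp was dropped). With the replicate number as a block it was −5.88 (adjusted p = 0.0920), and within set 2 it was −3.53 (adjusted p = 0.259). The 17 dpp difference was −4.71 ± 0.87 (adjusted p = 0.00194).

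The remaining gene of this class, the coding gene 1700102P08Rik on chromosome 9, read 1596, 2377 and 1882 in wild type and 328, 293, 271, 288 and 243 in mutants at 14 dpp. The window of this gene shown above holds no match to the motif. At 17 dpp the wild-type arrays gave 6119, 6001, 4266, 2629.7 and 4121 and the mutant arrays 822, 792, 433, 395 and 592. All mutant arrays stayed well above the percentile, so both folds are measured on both sides. They were 6.80-fold at 14 dpp (−2.76 ± 0.31, adjusted p = 0.000214) and 7.62-fold at 17 dpp (−2.93 ± 0.27, adjusted p = 9.06e-07).

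**Figure D3:**
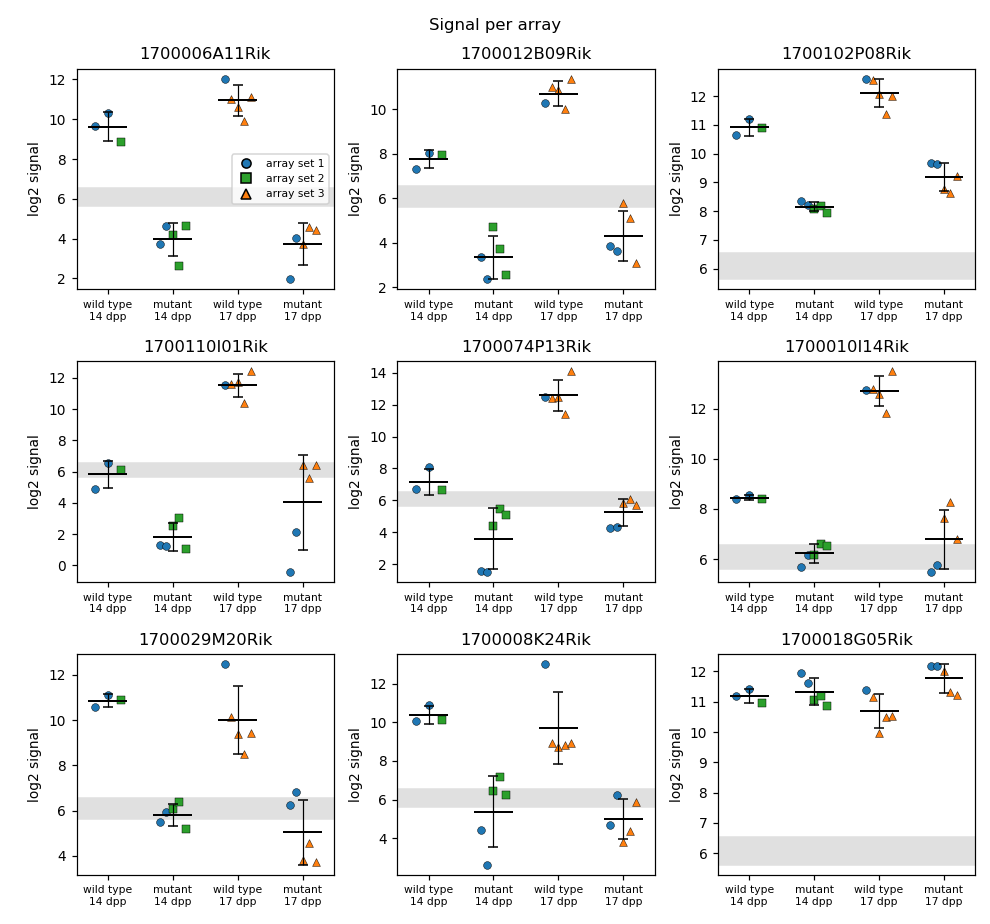
Log2 signal of 9 genes on every array, by genotype and age; marker and colour give the array set, the line is the group mean, the bar the SD, and the grey band the range of the arrays' 40th percentiles (49.2 to 93.4 as signal). In 1700006A11Rik and 1700012B09Rik all mutant points lie under the band or within it, in 1700102P08Rik they lie above it, 1700008K24Rik has 1 wild-type point of 17 dpp far above the other 4, and in 1700018G05Rik the mutant points of 17 dpp tend to be the higher ones.

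Among the other 19 early genes that were called lower at 17 dpp, the largest falls were in 2 coding genes. The coding gene 1700074P13Rik on chromosome 6, with the RefSeq synonym Tryx5, read 103, 276 and 102 in wild type and 3.03, 2.85, 20.9, 43.3 and 34.0 in mutants at 14 dpp. It reached 5688, 5459, 5798, 2708 and 17476 in wild type at 17 dpp and 19.6, 19.9, 57.8, 67.1 and 51.4 in mutants. No mutant array passed its percentile at either age, and the wild-type gain between ages was 5.42 ± 0.85 (adjusted p = 0.000932). The fall in mutants at 17 dpp was −7.33 ± 0.74 (adjusted p = 2.96e-06), at least 91.0-fold.

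The coding gene 1700010I14Rik on chromosome 17 gave 333, 379 and 335 in wild type and 50.7, 71.2, 71.9, 97.6 and 91.9 in mutants at 14 dpp. Its wild-type signals at 17 dpp were 6908, 7043, 6162, 3658 and 11523, and its mutant signals 44.6, 54.2, 198, 306 and 111. Wild type rose by 4.25 ± 0.51 with age (adjusted p = 0.000133), and mutants differed by 0.56. The genotype difference was −2.22 at 14 dpp and −5.91 ± 0.45 at 17 dpp (59.99-fold, adjusted p = 1.27e-07). Its 2 other probe sets were called lower at 14 dpp as well, by −2.85 (adjusted p = 0.0370) and −4.48 (adjusted p = 0.00661), and at 17 dpp by −6.36 and −7.19. The lack of a call at 14 dpp thus belongs to the probe set used here.

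With that probe set, this gene was the only one of the 126 whose genotype difference was called as larger at 17 dpp than at 14 dpp, by −3.69 ± 0.68 (adjusted p = 0.0323). Over all probe sets that interaction was called lower for 0.204% and higher for 0%, and over all tested genes for 0.360% and 0%. A block for array set gave −3.38 (adjusted p = 0.00597). The call was lost in 12 of the 18 fits that leave out 1 array (adjusted p up to 0.135): without any 1 of the wild-type arrays of 14 dpp, mutant replicates 2 to 5 of 14 dpp, mutant replicates 2 and 5 of 17 dpp, or wild-type replicates 2, 3 and 5 of 17 dpp. It was also lost within set 1 (adjusted p = 0.0860) and with the replicate block (adjusted p = 0.142). For all other genes, a call at 17 dpp and none at 14 dpp does not show that the differences are unequal.

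Like 1700074P13Rik and 1700010I14Rik, the coding gene 1700019A02Rik on chromosome 1 was named for its high wild-type signal at 17 dpp. It read 593, 951 and 607 in wild type and 295, 307, 213, 222 and 152 in mutants at 14 dpp, then 3695, 7497, 8401, 6838 and 16044 in wild type and 549, 397, 821, 1067 and 781 in mutants at 17 dpp. All mutant arrays were above the percentile, and the 17 dpp groups were 11.1-fold apart (−3.48 ± 0.35, adjusted p = 2.84e-06). It was also the one gene called as rising with age in mutants, by 1.57 ± 0.35 (adjusted p = 0.0314) against 3.44 ± 0.40 in wild type. That rise was 0.61 (adjusted p = 0.516) once the array set was a block, and its call was lost without mutant replicate 3, 4 or 5 of either age (adjusted p = 0.0743 to 0.109).

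The rest of the early genes called lower at 17 dpp ranged down to 1700037H04Rik, whose −0.99 ± 0.27 (adjusted p = 0.0338) was the smallest fall among the 44. The lncRNA gene 1700020N01Rik is an example with strong signal in all groups: means of 3334 and 856 in wild type and mutant at 14 dpp and of 4319.5 and 952 at 17 dpp, where the difference was −2.18 ± 0.35 (adjusted p = 0.000511). The coding gene 1700066M21Rik had means of 2378 and 787 at 17 dpp (−1.60 ± 0.26, adjusted p = 0.000597), while another tested probe set of it differed by −0.91 (adjusted p = 0.145). These examples were chosen after their values were seen.

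Late genes, by the rule that defines them, were above background on all wild-type arrays of 17 dpp but not on all of those of 14 dpp. Their median difference with age in wild type was 3.38, with 14 of 20 called as rising, and their median genotype difference at 17 dpp was −3.81. In mutants the median difference with age was −0.16 and none of the 20 was called. Since onset was set from wild-type signals, the first of these medians follows largely from the sorting. The genotype median uses the same wild-type arrays of 17 dpp, so the sorting favours a negative value there too.

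The lncRNA gene 1700110I01Rik on chromosome 14 had the largest fitted fall of the 126, though not in every fit. It read 29.5, 94.0 and 67.3 in wild type and 2.42, 2.39, 5.62, 8.23 and 2.03 in mutants at 14 dpp. At 17 dpp it read 2915, 3110.3, 3422, 1315 and 5477 in wild type and 0.743, 4.43, 84.4, 47.8 and 85.4 in mutants. The lowest wild-type array of 17 dpp was far above the highest mutant array, with 2 of the 5 mutant arrays above their percentile. The genotype difference was −7.50 ± 1.03 (adjusted p = 9.02e-05), a 182-fold difference whose size rests on mutant signals at or near background. It was −6.87 in the fit with array set as a block, −6.43 with array weights, −5.99 on the log2(signal + 16) scale and −5.40 within set 3, each smaller than the fall of 1700074P13Rik in the same fit (−7.14, −7.07, −6.79 and −6.73). The gain with age in wild type was 5.69 ± 1.19 (adjusted p = 0.00632), and 3.39 (adjusted p = 0.0874) in the fit with array set as a block.

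The coding gene 1700003H04Rik on chromosome 3, next to 1700006A11Rik in RefSeq's gene order among tested genes, read 36.4, 25.5 and 59.2 in wild type at 14 dpp and 9.76, 2.61, 23.2, 32.7 and 9.21 in mutants. At 17 dpp wild type gave 726, 391, 536, 243 and 1540.2, and mutants 1.19, 0.640, 10.03, 18.01 and 12.1. No array of 14 dpp and no mutant array of 17 dpp passed its percentile. The 17 dpp fall was −7.00 ± 0.91 (adjusted p = 5.47e-05), at least 8.39-fold. Another tested probe set of 1700003H04Rik differed by only −1.41 at 17 dpp (adjusted p = 0.493) and by 2.45 at 14 dpp, and was called at neither age.

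RefSeq lists 1700123L14Rik on chromosome 6 as a transcribed pseudogene with the synonyms Npap60 and Nup50, so signal from a related transcript on this probe set cannot be told apart. Its wild-type arrays read 39.2, 157 and 134 at 14 dpp and 5995, 3804, 2892, 1147 and 8258 at 17 dpp. Mutant arrays read 25.1, 13.4, 35.2, 56.9 and 33.0 at 14 dpp and 15.2, 49.6, 138, 247 and 82.9 at 17 dpp. The wild-type rise of 5.27 ± 0.78 (adjusted p = 0.000582) and the genotype difference of −5.63 ± 0.68 at 17 dpp (adjusted p = 2.18e-05) leave the 17 dpp groups apart. Since 2 of the 5 mutant arrays lay below their percentile, the fold is not well set, and the difference ran from −7.77 to −4.50 over the alternatives.

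The coding gene 1700029F12Rik on chromosome 13 read 49.3, 56.0 and 32.9 in wild type at 14 dpp and 1123, 371, 221, 142 and 1244 at 17 dpp. Mutants read 3.91, 9.18, 22.1, 73.5 and 35.6, then 3.41, 4.05, 61.3, 6.63 and 31.1. Wild type varied widely at 17 dpp, yet its lowest array was above the highest mutant array. The difference was −5.29 ± 0.91 (adjusted p = 0.000972), at least 6.53-fold. Only its wild-type arrays of 17 dpp lay above their percentiles, so 1700029F12Rik was tested through the group where it is high.

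A further pair of late genes was named for their rise in wild type. The transcribed pseudogene 1700065I16Rik on chromosome 15 rose by 4.30 ± 0.88 (adjusted p = 0.00556), from 29.9, 10.5 and 30.3 to 326, 449.9, 294, 266 and 1105, and lost the call within set 1 (adjusted p = 0.104). Its mutant signals at 17 dpp were 2.45, 12.1, 10.5, 25.8 and 103, all below wild type (−4.77 ± 0.76, adjusted p = 0.000448). The coding gene 1700017N19Rik on chromosome 10 rose by 4.45 ± 0.91 (adjusted p = 0.00577), from 19.2, 13.8 and 5.01 to 134, 233, 279, 137 and 678.

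Mutants read 24.8, 1.61, 3.63, 33.6 and 17.5 for 1700017N19Rik at 17 dpp (−4.63 ± 0.79, adjusted p = 0.000914, at least 3.58-fold). This gene too was above its percentiles only on wild-type arrays of 17 dpp, the group where it is high. Within set 1 the genotype difference of 1700017N19Rik was −4.41 and the rise 3.04, but neither was called. The rise had an adjusted p of 0.139 and the genotype difference one of 0.122 without set 3, and of 0.389 and 0.186 within set 1, while the rise was 3.28 (adjusted p = 0.0845) in the fit with array set as a block.

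The 4 late genes without a call at 17 dpp were also all negative, a sign that the sorting favours. They were 1700016A09Rik (−2.12 ± 0.70, adjusted p = 0.0926), 1700001G17Rik (−1.11 ± 0.68), 1700036A12Rik (−0.58 ± 0.66) and 1700054O19Rik (−0.37 ± 0.64). In the last 2 the difference was smaller than its SE, so no direction can be read from them.

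Of the genes with neither onset, 1700018F24Rik, a coding gene on chromosome 5, was called lower at 17 dpp. Its wild-type arrays of 17 dpp read 1905, 427, 144, 34.8 and 450.2, and its mutant arrays 2.45, 1.10, 20.5, 21.8 and 14.0. The array at 34.8 lay below its percentile, which kept the gene out of the late class, but it was still above every mutant array. The difference was −5.34 ± 1.08 (adjusted p = 0.00449), at least 4.22-fold, and the adjusted p was 0.109 with array weights. The other 2 calls were 1700017G19Rik (−5.35 ± 1.19, adjusted p = 0.00965) and 1700021F07Rik (−3.87 ± 1.09, adjusted p = 0.0442), and the latter's wild-type mean of 69.3 is hardly above the percentile.

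With age in wild type, 27 of the 126 genes rose (21.4%) and 2 fell. Over all tested probe sets 4.86% rose and 16.5% fell, and over all tested genes 7.05% rose and 18.9% fell. The median was 0.53 for the 126 genes and −0.44 for all probe sets. That background median depends on scaling: it was −0.08 after scaling arrays to a common median and −0.01 after quantile normalization, so the age values above are relative to a table that sits lower at 17 dpp as deposited. At 17 dpp the genotype median over all probe sets moved likewise from 0.25 to 0.11 under both. All 27 rises kept their sign within set 1 and in the fit with array set as a block, and 17 kept the call with that block. The 27 were chosen on these same arrays and 26 had no overlap between ages. For those 26 the sign within set 1, with its single wild-type array of 17 dpp, was fixed in advance.

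In mutants 1 gene rose with age, 1700019A02Rik above, and 2 fell (0.79% and 1.59%). The shares were 0.423% and 1.5% of all probe sets, and 0.65% and 1.12% of all tested genes. At an unadjusted p under 0.05, 6 were lower and 10 higher, against 3238 and 1387 of all 15266 tested genes. The median of the genes described here was −0.04. As deposited, all tested genes thus went mostly the other way, but that direction depends on scaling. Over all probe sets, 520 were called lower and 147 higher with age in mutants as deposited. These counts became 329 and 1395 after scaling to a common median, and 410 and 563 after quantile normalization. The 2 falls, named here after their values were seen, were the lncRNA gene 1700110K17Rik (−2.52 ± 0.51, adjusted p = 0.0224) and the coding gene 1700037H04Rik (−1.07 ± 0.27, adjusted p = 0.0475). After scaling to a common median or quantile normalization the calls were 1 fall and 2 rises, with 1700102P08Rik called as rising and 1700037H04Rik not called. Comparisons of genotype and of age share arrays, so these values stand side by side and were not tested against each other.

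**Figure D4:**
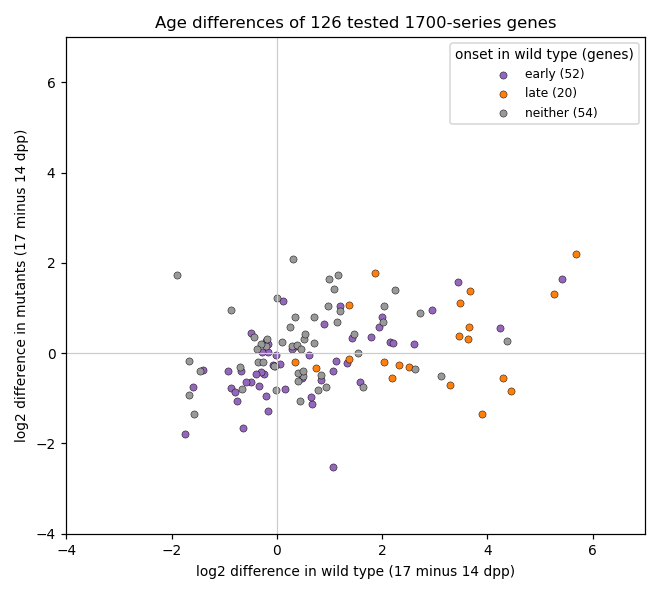
Each of the 126 tested genes is placed by its log2 difference of 17 minus 14 dpp in wild type (horizontal axis) and in mutants (vertical axis), coloured by onset (52 early, 20 late, 54 neither). Late genes lie to the right of 0 and spread from −1.35 to 2.21 on the vertical axis, around a median of −0.16.

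The falls with age in wild type were in 2 early genes whose probe sets were not called by genotype. A second probe set of 1700025G04Rik was called higher in mutants at 17 dpp (1.03, adjusted p = 0.00904), and 1700011M02Rik was so called in some of the other fits. The coding gene 1700025G04Rik on chromosome 1 read 1503, 1356 and 1057 at 14 dpp and 727, 517, 425, 334 and 267 at 17 dpp in wild type (−1.60 ± 0.35, adjusted p = 0.00879). The lncRNA gene 1700011M02Rik on the X chromosome read 5059, 5194 and 4945 at 14 dpp and 4869, 2125, 1184, 1505 and 1358 at 17 dpp (−1.41 ± 0.45, adjusted p = 0.0351). In the latter the array of 17 dpp that lies with those of 14 dpp is the one of set 1, and the 4 low ones are set 3.

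Neither fall was called in every fit. With the set as a block 1700011M02Rik differed by −0.14 (adjusted p = 0.752), without set 3 by −0.06, and 1700025G04Rik by −0.92 (adjusted p = 0.0765). The call of 1700025G04Rik was also lost after scaling to a common median (adjusted p = 0.0701) and without wild-type replicate 1 of 14 dpp (adjusted p = 0.0544). That of 1700011M02Rik was lost after that scaling too, and without any 1 wild-type array other than replicate 1 of 17 dpp (adjusted p = 0.0548 to 0.0997).

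One gene was called higher in mutants at 17 dpp, the X-linked lncRNA gene 1700018G05Rik, outside the naming rule because its groups overlap. Mutant arrays read 4649.6, 4621, 4097, 2538 and 2382 and wild-type arrays 2662, 2282, 1012, 1440.5 and 1462. The difference was 1.07 ± 0.29 (2.10-fold, adjusted p = 0.0377), and 0.92 (adjusted p = 0.00311) in the fit with array set as a block. None of the 126 genes was called higher after scaling to a common median, with only the groups compared or without moderation. The same held in 8 of the 18 fits that leave out 1 array: mutant replicate 4 or wild-type replicate 1 of 14 dpp, mutant replicate 1, 2 or 3 of 17 dpp, or wild-type replicate 3, 4 or 5 of 17 dpp. Positive differences at 17 dpp were common on the whole array, in 9841 of all 15266 tested genes (median 0.26). All 5 X-linked genes tested, grouped after their values were seen, had positive differences at 17 dpp, from 0.47 in 1700031F05Rik to 1.16 in 1700011M02Rik, and the 4 besides 1700018G05Rik were not called. In the fit with array set as a block 2 of those 4 were called higher too, 1700011M02Rik (0.83, adjusted p = 0.000582) and 1700013H16Rik (adjusted p = 2.11e-05). The call of 1700011M02Rik was also made within set 3 (adjusted p = 0.00714), without set 3 (0.0307), with the replicate block (0.00381), with array weights (0.0376), and without mutant replicate 4 (0.0492) or wild-type replicate 1 (0.00956) of 17 dpp. Genes of the X chromosome are silenced in normal pachytene spermatocytes, which is background and not a measurement here.

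By gene type, 20 of the 56 tested coding genes and 22 of the 58 tested lncRNA genes were called lower at 17 dpp. Their medians were −0.66 and −1.19. Each type gave 3 of the 6 calls at 14 dpp, and 11 coding and 14 lncRNA genes rose with age in wild type. Over the whole array, 5.53% of 14244 tested coding genes and 11.4% of 805 tested lncRNA genes were called lower at 17 dpp.

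**Figure D5:**
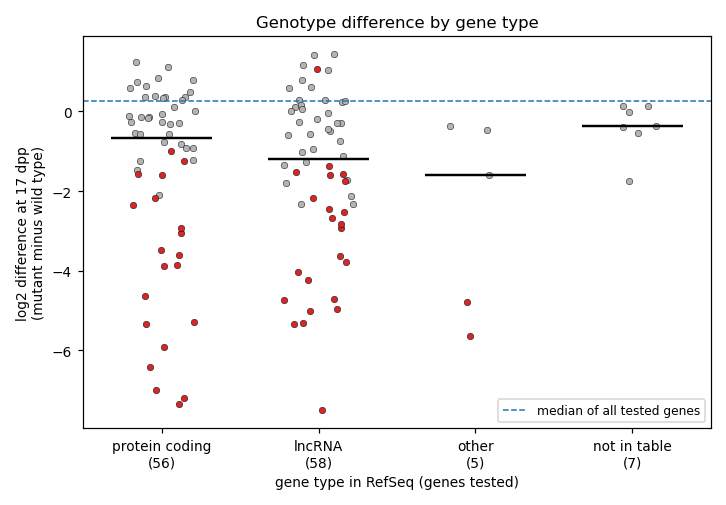
Log2 difference at 17 dpp, mutant minus wild type, for each tested gene by RefSeq gene type, with called genes in red. Coding genes (median −0.66) and lncRNA genes (median −1.19) both spread from values above 0 to falls of about 7 on the log2 scale.

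Related clone series give a scale for these counts. Of 417 genes still named after clones of other RIKEN series that come largely from adult testis, 239 were tested. At 17 dpp 51 of them (21.3%) were called lower, with a median of −0.43, at 14 dpp 3, and 41 rose with age in wild type. Of 616 genes that once carried a 1700-series clone name and now have another symbol, by RefSeq synonyms, 515 were tested, and 123 (23.9%) were lower and 4 higher at 17 dpp with a median of −0.31. Differences between these shares were not tested.

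Pachytene spermatocyte markers moved with the same groups. Of 18 markers, including Ldhc, Pgk2 and Piwil1, 10 were called lower in mutants at 14 dpp and 16 at 17 dpp, and 12 rose with age in wild type (medians −2.34, −3.93 and 2.45). Their summed signal was 26540.0 to 36099 in wild type and 10082 to 11811 in mutants at 14 dpp. It was 110786 to 219649 in wild type and 8785 to 12242 in mutants at 17 dpp. The part of spermatocyte number in the falls above was not tested. Of 10 Sertoli cell markers none was called by genotype at either age, and 6 fell with age in wild type. Their median genotype difference at 17 dpp was 0.70, against 0.26 over all tested genes, so the lack of calls does not show a lack of difference. Of 8 tested round spermatid markers none was called in any comparison.

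Neighbouring genes were read from RefSeq's gene order. Of the 44 genes called lower, 10 had a nearest tested neighbour that was also called lower, or 10 of 87 neighbours (11.5%), against 11 of 150 (7.33%) for the other genes. Of all tested genes 5.84% were called lower at 17 dpp. The 10 include 1700003H04Rik and 1700006A11Rik, which count as each other's neighbour, and the shares were not tested against each other. The lncRNA gene 1700097N02Rik and Dnah8, an axonemal dynein heavy chain gene, start 31 bases apart on opposite strands of chromosome 17. Both were called lower at 17 dpp, with differences of −3.62 ± 0.43 and −4.46 ± 0.48. Another tested probe set of 1700097N02Rik was called lower by −5.91, while a further one differed by −1.01 and was not called (adjusted p = 0.374). The lncRNA gene 1700051A21Rik and Slc13a5, which encodes a citrate transporter, start 240 bases apart, and both were called lower, with differences of −2.68 and −1.55. The gene 1700010I14Rik lies next to Pabpc6, of the poly(A)-binding protein family, which was also called lower (−4.90 ± 0.43).

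Such divergent pairs did not all move together. Of 6 genes called lower with a tested divergent partner within 1000 bases, 2 had a partner called lower. The partner of 1700040D17Rik is Tdrkh, a Tudor protein of the piRNA pathway, with a difference of −0.11, that of 1700052K11Rik is the kinase gene Tlk2 (−0.38), and that of 1700088E04Rik is Polr2f, an RNA polymerase subunit gene (1.45). The fourth, 4930558J18Rik, starts 76 bases from 1700066M21Rik and differed by −1.61 ± 0.47, which was not called (adjusted p = 0.0544), beside −1.60 in its partner.

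Another probe set for the same gene was on the array for 35 of the 200 genes. For the 8 genes called lower at 17 dpp that had one tested, 11 of 12 other probe sets were negative and 5 were called lower. All 5 belong to 1700010I14Rik, 1700051A21Rik and 1700097N02Rik, so the other genes of the 8 had no second probe set called. The positive value was in 1 of the 2 other probe sets of 1700037H04Rik, with a difference of 0.57, while the second had −0.21, and neither was called.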

How the data were processed

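The authors deposited 1 table of MAS5 signal intensity on a linear scale for 45101 probe sets and 18 arrays (Affymetrix mouse genome 430 2.0). GCOS is named in the series' design text and MAS5 in the submitters' processing notes, with no version. Leaving out 64 control probe sets, 34945 had a single gene in the annotation, 932 several genes and 9160 no gene. Annotation came from GEO's platform table, with symbols updated by Entrez ID through RefSeq (GRCm38.p6), which held 191 of the 200 genes.

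All 18 arrays entered a limma model of log2 signal (version 3.58.1, R 4.3.3) that held a mean for each of the 4 groups and left 14 residual degrees of freedom. Variances were moderated by eBayes with a trend on intensity. Tests were two-sided, adjusted by Benjamini-Hochberg over 34764 probe sets. No scaling between arrays was added, and the intensities give no counts, so the number of arrays limits the precision. The code was tested on simulated data. The labels do not say which arrays came from separate mice, so p-values measure the spread between these arrays, which may be partly technical.

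The genes, lists, onset rule and array sets (β-actin ratio bounds 1.9 and 10) were chosen with earlier results of these data known. Genes were named by this rule: the 10 largest falls and 5 largest rises at 17 dpp among calls without overlap, calls without overlap at 14 dpp, the 6 largest rises and 3 largest falls with age in wild type without overlap, the 5 largest rises in mutants, called interactions, and the 3 brightest genes in wild type at 17 dpp. Other genes named are marked in the text. Marker lists for spermatogonia (8 tested, 1 lower at 17 dpp by genotype), preleptotene to zygotene cells (9; 1 lower, 2 higher), Leydig (4; 0), peritubular myoid (4; 0), macrophage (5; 1 higher) and endothelial cells (4; 0) were counted beside the 3 lists in the report. None of these 6 lists had a call by genotype at 14 dpp. Their median genotype differences at 17 dpp were 0.83, −0.12, 1.00, 0.52, 0.90 and 0.41 in that order.

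Replicate numbers shared by the genotypes were checked by correlating deviations from group means. Same-numbered arrays of 14 dpp gave 0.283, 0.355 and 0.385, each pair within 1 array set. Pairs of 17 dpp within 1 set gave 0.777, 0.226, 0.385 and 0.207, and the pair across sets gave −0.227. Array set was not removed before correlating, so the check cannot tell a pairing from a shared set at either age. Replicate number served as a block in an alternative fit, and at 14 dpp the blocked values stand beside the calls they end. Alternatives changed the scaling, filter, log scale, array sets, replicate block, array weights, samples in the fit, moderation, probe set rule and gene symbols, and left out each array in turn. Restricting the genes to those in RefSeq was added after the data were seen.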

Additional observations from a re-analysis of the deposited data

Results flagged for a closer look

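The log2 signal of 1700008K24Rik on wild-type replicate 1 of 17 dpp was 13.04, while the other 4 arrays of that group lay between 8.74 and 8.93. It stood apart by Dixon's test at the 95% level. This array is the only wild-type array of 17 dpp in set 1. It was the 1 group with such an array among 54 groups of 5 arrays tested over the named genes, and chance flags about 1 in 20.

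The genotype difference of 1700010I14Rik was larger at 17 than at 14 dpp by −3.69 on the log2 scale (interaction term in limma, adjusted p = 0.0323), and its dependence on the model is given in the report.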

How the results depend on the processing

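The count of 45 genes called at 17 dpp lay between 35 and 53 under every alternative tried (38 to 45 when 1 array was left out) and kept within 1.5 times its value. The other counts were less stable, and the cause was not tested. The 6 calls at 14 dpp became 12 with the array set as a block, 12 without set 3 (11 lower and 1 higher in both), 35 with array weights (28 lower, 7 higher) and 10 with only the groups compared, 4 with the replicate block, and 4 to 8 when 1 array was left out. Genes called lower at both ages numbered 11 with array sets as the block. The 29 calls with age in wild type became 16 with the replicate block and 49 with array weights, and 20 to 33 when 1 array was left out. The 3 calls with age in mutants became 1 with the array set as a block, 6 without set 3, 19 with array weights, 0 within set 1, 0 with the replicate block, 0 with only the groups compared and 0 without moderation at an adjusted p of 0.025, and 0 to 10 when 1 array was left out. The 1 interaction call became 4 after quantile normalization, 2 with the 60th percentile filter, 11 with log2(signal + 16), 7 with the set block, 15 without set 3, 11 with array weights, 2 with the mean of a gene's probe sets, 0 within set 1, 0 with the replicate block and 0 without moderation, and 0 to 3 when 1 array was left out. For the named genes 992 fits gave the same call, 78 lost it, 7 gained it and none changed sign. Apart from the values given in the report, the replicate block ended no call of a named gene at 14 dpp. Signal over background limits the folds of the 12 genes whose mutant arrays of 17 dpp all lay under their percentiles, which are bounds.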
